A study of Saccharomyces cerevisiae with 27 samples.

Results

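A set of 10 amino acid permeases of the budding yeast plasma membrane was followed through 5 comparisons meant to alter membrane lipids or oxygen supply. Members were the genes named GAP1, AGP1, GNP1, BAP2, BAP3, TAT1, TAT2, CAN1, LYP1 and DIP5, chosen by function without the methionine permeases. The set is not the whole class. Other amino acid permeases, such as HIP1, PUT4 and AGP3, were counted in a separate list of other transporters. All 10 were among the 6709 genes of the authors' deposited table, and all 10 had a q under 1, taken here as tested, in every comparison. Between the group labelled OLE1met250 and OLE1met0, GAP1 and TAT1 rose while BAP2, CAN1 and DIP5 fell. In long-term hypoxia BAP2, CAN1, LYP1 and DIP5 rose and TAT1 fell. DIP5 alone was called in short-term hypoxia, where it rose, and with the SPT23 fragment, where it fell, and no member was called with the MGA2 fragment.

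These permeases are proton-coupled transporters that bring amino acids into the cell. Their genes answer to what is outside and inside it. The SPS sensor (Ssy1, Ptr3 and Ssy5) detects external amino acids and releases the factors Stp1 and Stp2, which activate permeases such as AGP1, BAP2, BAP3, TAT1 and GNP1. Under nitrogen catabolite repression, good nitrogen sources hold back the GATA activators Gln3 and Gat1, and with them GAP1 and many genes for poor nitrogen sources. The strain BY4742 is a known histidine, leucine, lysine and uracil auxotroph, so it depends on uptake for histidine, leucine and lysine among the amino acids.

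RNA was sequenced from 27 libraries in 9 groups of 3, described by the submitters as biological replicates, and all were labelled as strain S288C grown in CSM medium. OLE1met0 and OLE1met250 carried an integration of the MET3 promoter at OLE1, the desaturase gene. The labels give OLE1met0 a high and OLE1met250 a low lipid unsaturation, and the OLE1met250 treatment label reads 0 uM methionine (repressed), whereas the file header names that group as the one with methionine. The groups spt23p90 and mga2p90 carried the plasmid pCM188 with the processed fragment of SPT23 or MGA2, activators of OLE1. Each fragment was expressed without doxycycline, and spt23p90-dox and mga2p90-dox were the same strains with the drug. The remaining 3 groups were BY4742 itself, with air (BY), after 90 min of argon (ArgonST) and from a microfermenter with hypoxia labelled as long-term (ArgonLT). Methionine and the intended OLE1 repression, the drug and the absence of a fragment, and the vessel and the oxygen supply cannot be told apart.

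The file holds the authors' Cuffdiff log2 fold changes, first group over second, and q values adjusted for false discovery. It has no value per library, so values are given without an SD or n, replicate spread is reflected in the q alone, and the depth is unknown. In bulk RNA, fewer cells that express a gene and less RNA per cell cannot be told apart. A gene is called where q was under 0.05. The lowest q in each of the 5 comparisons was 0.000304, so genes at that value cannot be ranked by q. In the authors' deposited table SPT23 was 5.86-fold and MGA2 13.3-fold higher with their own fragments. MGA2 was also called 2.76-fold lower with the SPT23 fragment and 4.70-fold higher in ArgonLT. OLE1 was called higher with the SPT23 fragment (2.15-fold), the MGA2 fragment (4.52-fold), in ArgonST (1.64-fold) and in ArgonLT (9.22-fold). OLE1 had a log2 fold change of -0.03 (q 0.925) for OLE1met250 over OLE1met0, so the intended target does not check that label, and MGA2 was 20.2-fold higher there. MET3, whose promoter was placed at OLE1, was at 0.36 (q 0.274) there and does not check the label either. Of the genes behind the auxotrophies of BY4742, LEU2 and LYS2 had a log2 of 0 and a q of 1 throughout. HIS3 had finite values, from -1.93 (q 0.0630) in OLE1met250 to 1.46 (q 0.154) in ArgonLT, none called. URA3 was listed at -10 in OLE1met250 and at 10 in ArgonLT, both with a q of 1 and read here as no finite ratio, and at 0 in ArgonST. With the SPT23 fragment it was at -0.72 (q 0.00453) and with the MGA2 fragment at -0.52 (q 0.0555). Whether the groups of OLE1met250 over OLE1met0, or of ArgonLT over BY, differed in genotype beyond their labels was not tested.

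The upstream regions of GAP1, CAN1, BAP2, TAT1 and DIP5 are shown because GAP1 had the largest change in OLE1met250 and the others were called in at least 2 comparisons. Each run is 300 bases of the R64 reference, read 5′ to 3′ on the coding strand, from base 560 to base 261 before the start codon. Capitals mark, on either strand, GATAAG (bound by GATA factors), CGGC (the core of Stp1 and Stp2 sites) and TGACTC (bound by Gcn4, the activator of amino acid synthesis). No annotated gene overlaps these windows, which lie at chrXI:514503-514802 on the plus strand (GAP1), chrV:33727-34026 on the minus strand (CAN1), chrII:375951-376250 on the minus strand (BAP2), chrII:378694-378993 on the minus strand (TAT1) and chrXVI:40483-40782 on the plus strand (DIP5).
GAP1: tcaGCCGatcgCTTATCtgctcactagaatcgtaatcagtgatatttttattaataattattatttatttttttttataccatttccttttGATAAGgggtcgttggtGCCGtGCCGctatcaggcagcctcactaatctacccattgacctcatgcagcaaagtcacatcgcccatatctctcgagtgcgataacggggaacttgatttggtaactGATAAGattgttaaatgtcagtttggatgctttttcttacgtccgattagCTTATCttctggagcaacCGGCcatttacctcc
CAN1: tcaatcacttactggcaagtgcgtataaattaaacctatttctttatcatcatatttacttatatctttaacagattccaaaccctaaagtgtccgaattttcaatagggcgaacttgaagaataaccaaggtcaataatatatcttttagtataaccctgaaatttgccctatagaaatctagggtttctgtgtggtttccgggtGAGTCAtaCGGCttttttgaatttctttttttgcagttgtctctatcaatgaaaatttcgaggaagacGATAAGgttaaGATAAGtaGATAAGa
BAP2: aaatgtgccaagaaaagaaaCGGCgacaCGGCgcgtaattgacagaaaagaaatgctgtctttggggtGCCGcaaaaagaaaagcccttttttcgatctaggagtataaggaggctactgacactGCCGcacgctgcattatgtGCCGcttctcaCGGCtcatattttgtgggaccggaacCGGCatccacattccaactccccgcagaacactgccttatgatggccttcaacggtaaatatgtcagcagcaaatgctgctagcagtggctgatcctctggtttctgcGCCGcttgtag
TAT1: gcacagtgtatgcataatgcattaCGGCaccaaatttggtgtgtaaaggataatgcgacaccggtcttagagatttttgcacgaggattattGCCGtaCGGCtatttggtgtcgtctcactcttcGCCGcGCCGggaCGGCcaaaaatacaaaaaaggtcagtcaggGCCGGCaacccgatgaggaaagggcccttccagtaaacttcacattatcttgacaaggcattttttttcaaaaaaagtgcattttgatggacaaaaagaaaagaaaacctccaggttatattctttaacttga
DIP5: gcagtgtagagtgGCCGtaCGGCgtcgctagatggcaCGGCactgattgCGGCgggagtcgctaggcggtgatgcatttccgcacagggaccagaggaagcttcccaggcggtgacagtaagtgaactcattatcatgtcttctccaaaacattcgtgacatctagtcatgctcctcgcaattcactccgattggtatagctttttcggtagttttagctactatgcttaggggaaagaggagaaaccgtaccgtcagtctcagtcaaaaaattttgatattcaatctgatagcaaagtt

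The GAP1 window holds 4 GATAAG and 4 CGGC matches. That of CAN1 holds 3 GATAAG, set close together at its end, 1 CGGC and 1 TGACTC. BAP2 and TAT1 have 8 CGGC matches each and DIP5 has 4, and these 3 windows hold no GATAAG. From 250 bases before to 50 after the start codon, the window chosen first, GATAAG was found in 1 of 10 members, CGGC in 3 and TGACTC in 1, against 14.6%, 47.7% and 7.96% of 6020 promoters. The longer window and the match numbers quoted for it were chosen after the data were seen. In those 600 bases before the start codon, 3 of the 10 members hold GATAAG, namely GAP1 with 5 matches, CAN1 with 3 and AGP1 with 2. Of 6018 promoters of that length, 26.7% hold at least 1 GATAAG, 0.698% at least 3 and 0.116% at least 5. The shorter GATA core, GATAA, was in 5 of 10 members in the window chosen first, against 61.5% of promoters. In the 600 bases it was in 6 of 10, against 84%. All 10 members hold CGGC, as do 75.2% of promoters. At least 7 matches are present in AGP1 (9), BAP2 and TAT1 (8 each) and BAP3 and GNP1 (7 each), a number reached by 1.35% of promoters. TGACTC occurs once each in AGP1, BAP2 and CAN1, and 15.3% of promoters hold it. A 4-letter core is common in any sequence, and a match is a description of the sequence and no evidence of binding.

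**Figure D1:**
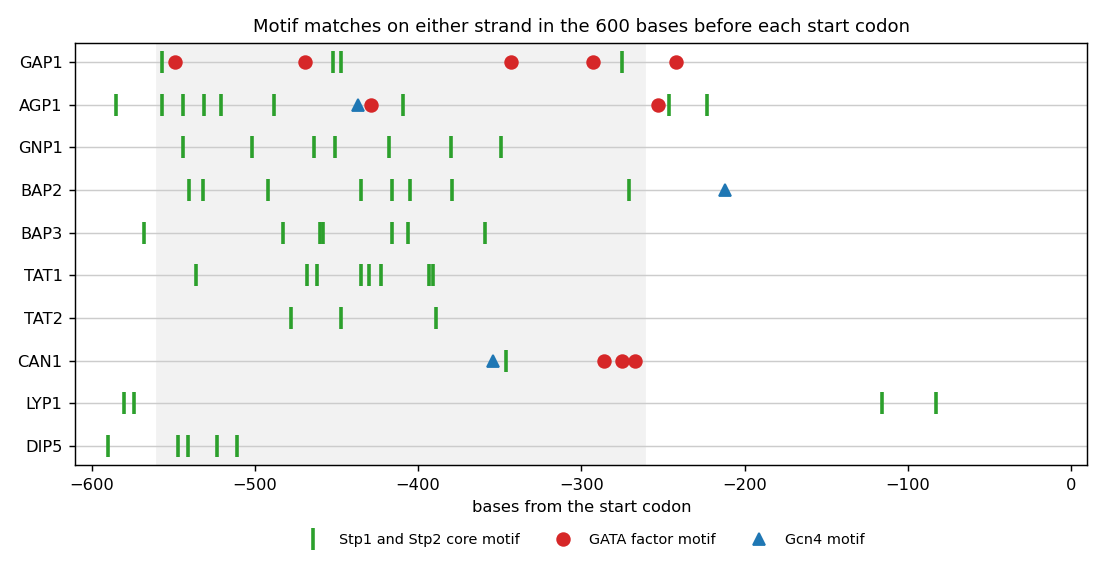
Matches to the Stp1 and Stp2 core (green bars), GATA factor (red circles) and Gcn4 (blue triangles) motifs, on either strand, by distance in bases from the start codon, for the 10 members. Red circles occur in GAP1, AGP1 and CAN1, the green bars of BAP2 and TAT1 number 8 each, and the shaded band is the window from base 560 to base 261.

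The members are single-exon genes of 1773 to 1992 coding bases. BAP2 (YBR068C, chromosome II, 373861 to 375690) and TAT1 (YBR069C, chromosome II, 376574 to 378433) lie next to each other on the minus strand with 883 bases between them, and the upstream region of BAP2 is in that gap. The other loci are GAP1 (YKR039W, chromosome XI, 515063 to 516871), CAN1 (YEL063C, chromosome V, 31694 to 33466), LYP1 (YNL268W, chromosome XIV, 138550 to 140385) and DIP5 (YPL265W, chromosome XVI, 41043 to 42869). AGP1 is on chromosome III, BAP3 and GNP1 on IV and TAT2 on XV. The authors' locus for GNP1 (YDR508C) reaches 129 bases beyond the RefSeq start codon, and the other 9 loci have the RefSeq ends. Over the 45 pairs of members, coding sequence identity ran from 60.9% to 72.6% with a median of 63.9%. The closest pairs were AGP1 with GNP1 (72.6%, longest identical run 47 bases), BAP2 with BAP3 (70.4%, 22 bases) and CAN1 with LYP1 (70.4%, 19 bases). LYP1 also shares a run of 47 bases with ALP1, an arginine permease homologue outside the members. How reads shared by such genes were handled is not stated here, so members with long identical runs are less certain.

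In the comparison of OLE1met250 with OLE1met0, 2 members rose and 3 fell. The 5 of 10 called stand beside 31.2% of the 6065 tested genes, with 16.7% called higher and 14.5% lower. The member median was -0.43 log2, against -0.01 for all tested genes. In ArgonLT over BY, 4 members rose and 1 fell, beside 42.5% of 5702 tested genes called (24.1% higher and 18.4% lower), and the member median was 0.45 against 0.10. The share of members called in ArgonLT, 50%, lies near that of all genes. ArgonST over BY had 1 rise among 10, beside 7.27% of 5474 genes called (4.86% higher and 2.41% lower), and spt23p90 over spt23p90-dox had 1 fall, beside 12.4% of 5626 (6.86% higher and 5.49% lower). With the MGA2 fragment Cuffdiff's q called 0 of 10 members, beside 20.8% of 5606 genes (12.2% higher and 8.58% lower). Unadjusted p values were not used here. At a q under 0.1 there were 7 members in OLE1met250, with BAP3 and GNP1 added, and 6 in ArgonLT, with BAP3 added, beside 38% and 48.8% of tested genes. At that threshold there were also 2 with the SPT23 fragment, 1 with the MGA2 fragment and 1 in ArgonST, beside 17.9%, 28.4% and 11.4%. With a change of at least 2-fold as well as a q under 0.05 there were 3 members in OLE1met250, 3 in ArgonLT and 0 with the SPT23 fragment, beside 15.4%, 26.1% and 4.82%. At a q under 0.01, 4 remained in OLE1met250, beside 21%. Of the 50 values for members, 12 were called, on 6 genes. AGP1, BAP3, TAT2 and GNP1 were called in no comparison at a q under 0.05. No matching share over all genes was computed for these pooled counts, so they only describe the members.

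**Figure D2:**
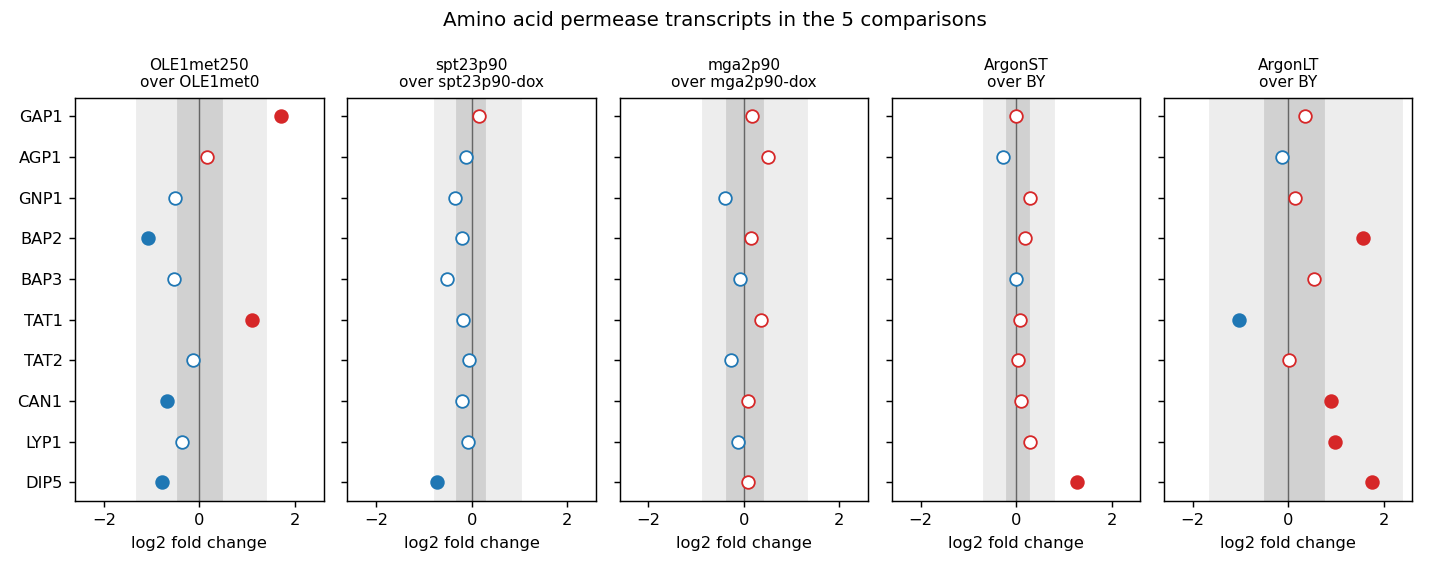
Log2 fold change of each permease (rows) in each comparison (panels), from the authors' deposited table, with filled points at a q under 0.05, red above 0 and blue below. The dark and light bands span the middle 50% and 90% of all tested genes, and in the ArgonST panel only DIP5, at 1.28, is filled.

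GAP1, AGP1 and GNP1 carry a broad range of amino acids. GAP1, the general amino acid permease, had the largest member change in OLE1met250. In the authors' deposited table it rose 3.29-fold in OLE1met250 (log2 1.72, q 0.000304), above 96.7% of tested genes. Elsewhere GAP1 was at 0.15 (q 0.634) with the SPT23 fragment, 0.17 (q 0.579) with the MGA2 fragment, 0.00023 (q 0.990) in ArgonST and 0.34 (q 0.271) in ArgonLT. The rise of GAP1 was thus called in 1 of 5 comparisons. AGP1, a permease for asparagine, glutamine and other neutral amino acids, ranged from -0.27 in ArgonST to 0.51 with the MGA2 fragment, where its q of 0.0821 was its lowest. GNP1, the high-affinity glutamine permease, ranged from -0.50 in OLE1met250 (q 0.0894) to 0.30 in ArgonST (q 0.361). AGP1 and GNP1, the closest pair in sequence, had values of opposite sign in 4 of 5 comparisons, none of them called.

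The carriers of branched-chain and aromatic amino acids split between neighbours. BAP2, a high-affinity permease for leucine, isoleucine and valine, fell 2.12-fold in OLE1met250 (log2 -1.08, q 0.000304) and rose 2.94-fold in ArgonLT (log2 1.56, q 0.000304), per the authors' deposited table. TAT1, which carries tyrosine, tryptophan and branched-chain amino acids, did the reverse, with a 2.13-fold rise in OLE1met250 (log2 1.09, q 0.000304) and a 2.05-fold fall in ArgonLT (log2 -1.03, q 0.000304). The log2 value of BAP2 minus that of the adjacent TAT1 was therefore -2.18 in OLE1met250 and 2.59 in ArgonLT. With the SPT23 fragment, the MGA2 fragment and short-term argon that difference was -0.02, -0.22 and 0.10, and neither gene was called. These differences are values without a test of their own.

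BAP3, the close homologue of BAP2, had the same sign as BAP2 in OLE1met250 (-0.53, q 0.0677) and ArgonLT (0.55, q 0.0897) in the authors' deposited table, without a call. Its values with the SPT23 fragment (-0.52, q 0.0833), the MGA2 fragment (-0.08, q 0.828) and in ArgonST (-0.01, q 0.984) were not called either. TAT2, the high-affinity tryptophan permease, had the narrowest range of the 10 members, with values between -0.27 and 0.04 and no q under 0.347. TAT1 and TAT2 both carry tryptophan and were apart by 1.22 log2 in OLE1met250 and by -1.04 in ArgonLT, TAT1 minus TAT2.

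The basic amino acid permeases had the same sign in 4 of 5 comparisons. CAN1, the arginine permease, fell 1.61-fold in OLE1met250 (log2 -0.69, q 0.0108) and rose 1.86-fold in ArgonLT (log2 0.90, q 0.000304) in the authors' deposited table. LYP1, the lysine permease, was at -0.36 (q 0.230) in OLE1met250 and rose 1.98-fold in ArgonLT (log2 0.99, q 0.000304). In the other 3 comparisons CAN1 lay between -0.19 and 0.11 and LYP1 between -0.13 and 0.29, with no call. Each was the other's nearest member over the 5 log2 fold changes, at a Euclidean distance of 0.45.

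DIP5, the permease for glutamate and aspartate, was called in 4 of 5 comparisons, more than any other member. The share of all genes called in that many comparisons was not computed, so the count is only a description. Per the authors' deposited table it fell 1.73-fold in OLE1met250 (log2 -0.79, q 0.00563) and 1.66-fold with the SPT23 fragment (log2 -0.73, q 0.00472). It rose 2.43-fold after 90 min of argon (log2 1.28, q 0.000304), above 98.2% of tested genes, and 3.35-fold in ArgonLT (log2 1.74, q 0.000304), above 91% of them. Both argon comparisons use the same BY libraries. With the MGA2 fragment DIP5 was at 0.09 (q 0.783), and its difference between the fragments was not tested. For the other 9 members the ArgonST values lay between -0.27 and 0.30.

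OLE1met250 over OLE1met0 and ArgonLT over BY share no library, and the members called in both had opposite signs in them. Of the 5 members called in each, 4 were called in both (BAP2, TAT1, CAN1 and DIP5), and all 4 changed sign, 3 from lower to higher and TAT1 from higher to lower. Across the authors' deposited table, 999 genes were called in both, which is 52.8% of those called in OLE1met250 and 41.2% of those called in ArgonLT, and 426 of them (42.6%) had opposite signs. GAP1 and LYP1 were called in 1 of the pair each. DIP5 was also lower with the SPT23 fragment and higher in ArgonST and ArgonLT.

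**Figure D3:**
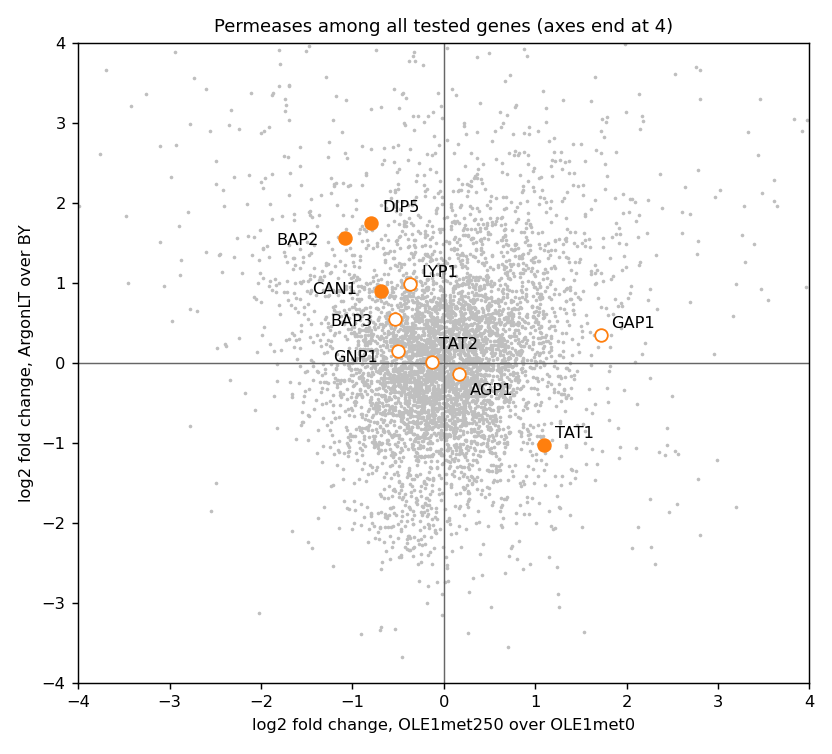
Each point is a gene with a q under 1 and a finite value in both comparisons, with log2 fold change in OLE1met250 over OLE1met0 on the x axis and in ArgonLT over BY on the y axis, both ending at 4. Filled orange points are the 4 members called in both, with BAP2, CAN1 and DIP5 at upper left and TAT1 at lower right, and open ones are the other 6.

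Among the regulators, STP2, GLN3 and URE2 also had opposite signs in these comparisons. STP2, a factor released by the SPS sensor, fell by 1.36 on the log2 scale in OLE1met250 and rose by 1.85 in ArgonLT, per the authors' deposited table. Its partner STP1 was at -0.34 and 0.36, without a call. The sensor gene SSY1 rose in both, by 0.84 and 0.70, and with the MGA2 fragment by 0.84. PTR3 rose in ArgonLT by 1.33. SSY5, the protease of the sensor, rose by 0.64 with the SPT23 fragment, and DAL81, a co-activator of the permease genes, fell there with a value of -0.86. Of the 13 listed SPS pathway genes, 1 rose and 2 fell in OLE1met250 (23.1% called, against 31.2% of all tested genes) and 4 rose in ArgonLT (30.8% against 42.5%). With the SPT23 fragment 1 of 12 tested rose and 1 fell (16.7% against 12.4%), with the MGA2 fragment 3 of 13 rose (23.1% against 20.8%), and in ArgonST 1 of 13 rose (7.69% against 7.27%). The list as a whole thus had a share of calls below or near that of all genes.

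The nitrogen catabolite factors had calls only in OLE1met250 and ArgonLT among the 5 comparisons. GLN3, the GATA activator, and URE2, which holds it in the cytoplasm, fell with values of -1.54 and -1.24 in OLE1met250 in the authors' deposited table. Both rose in ArgonLT, by 1.26 and 1.12, as did GAT1 by 1.26 and the GATA repressor GZF3 by 0.63. The kinase genes TOR1 and NPR1, whose products control nitrogen signalling and Gap1 stability, rose by 0.85 and 0.56, so that 6 of 6 tested regulators rose there, beside 24.1% of all tested genes. In OLE1met250 the 2 of 6 called, 33.3%, are near the 31.2% of all genes. DAL80, the other GATA repressor, had a q of 1 in every comparison. GCN4 was called in none, with values between 0.02 and 0.28. These are transcript values, and the release of Stp1 and Stp2, the location of Gln3 and the amount of Gcn4 protein were not measured. Of the 5 regulators of amino acid control, GCN2 was called with the MGA2 fragment (0.65, 20% of the list against 20.8% of all tested genes). GCN3 was called in ArgonST (0.60, 20% against 7.27%), and GCN1 (-0.83) and GCN20 (-0.89) in ArgonLT (40% against 42.5%). None was called in OLE1met250 or with the SPT23 fragment, against 31.2% and 12.4% of all tested genes.

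**Figure D4:**
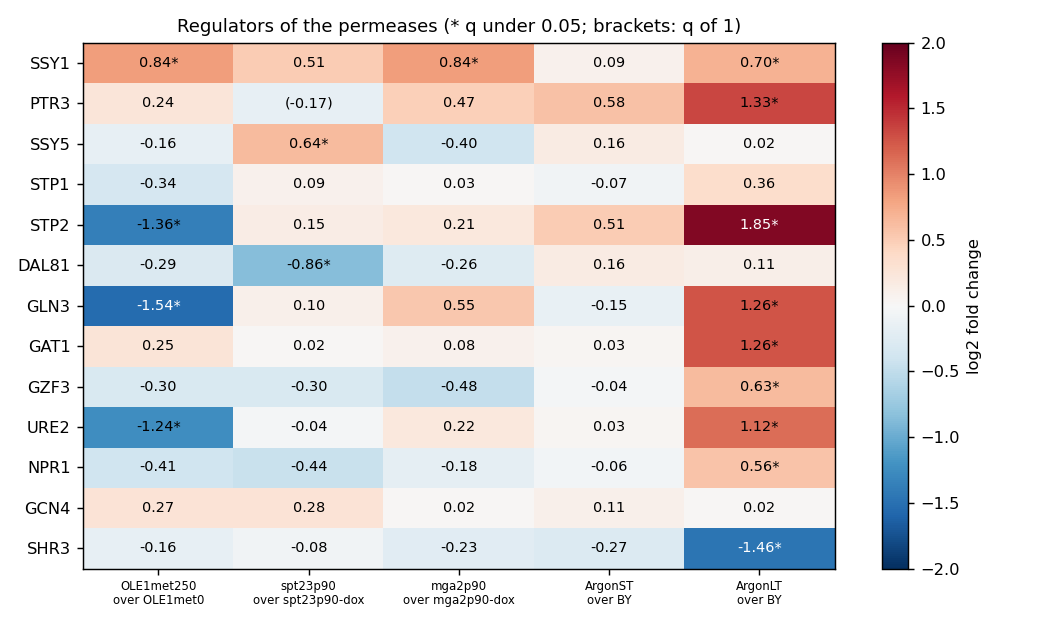
Log2 fold change of the sensor genes, activators, repressors, the kinase NPR1 and the chaperone SHR3 (rows) in the 5 comparisons (columns), from the authors' deposited table, with colour from -2 (blue) to 2 (red). Stars mark a q under 0.05, and STP2, GLN3 and URE2 are starred with opposite signs in OLE1met250 and ArgonLT.

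Other targets of nitrogen catabolite repression rose beside GAP1 in OLE1met250. There 14 of 22 tested genes rose and none fell (63.6% called, against 31.2% of all tested genes), with a median of 0.98 against -0.01 for all tested genes. PUT1, the proline oxidase, was at 3.16, UGA4, the GABA permease, at 2.93 and DAL1, the allantoinase, at 2.00 in the authors' deposited table. The ammonium permeases MEP1, MEP2 and MEP3 rose by 1.05, 1.53 and 1.34. In ArgonLT, where GAP1 was not called, 10 of 19 rose and 3 fell (68.4% against 42.5%, median 0.68), with DAL7 of allantoin use at 1.58, GDH2, the NAD-dependent glutamate dehydrogenase, at 1.42 and GLN1, the glutamine synthetase, at -1.14. The counts were 4 higher and 1 lower of 20 with the SPT23 fragment, 5 higher of 19 with the MGA2 fragment, and 1 higher and 2 lower of 20 in ArgonST, or 25%, 26.3% and 15% called against 12.4%, 20.8% and 7.27% of all genes.

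Other plasma membrane transporters of amino acids, peptides and related compounds went both ways. This list holds PUT4, UGA4 and DAL5, which the nitrogen targets hold too. Per the authors' deposited table, 6 of 17 rose and 2 fell in OLE1met250 (47.1% called, against 31.2% of all tested genes), with the proline permease PUT4 at 1.77, the choline transporter HNM1 at 1.22 and the histidine permease HIP1 at -0.68. In ArgonLT 7 of 14 rose and 3 fell (71.4% against 42.5%), with AGP3 at 2.39, the cysteine transporter YCT1 at 2.15 and the oligopeptide transporter OPT2 at -2.69. With the SPT23 fragment 1 of 15 rose and 5 fell (40% against 12.4%), led by the methionine permease MUP3 (-2.03) and the S-methylmethionine permease MMP1 (-1.87). With the MGA2 fragment 2 of 14 rose and 3 fell (35.7% against 20.8%), and in ArgonST the peptide transporter PTR2 (-0.54) fell, 1 of 13 (7.69% against 7.27%).

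A minority of the genes that carry permeases to the surface or tag them for removal were called in each comparison. SHR3, the ER chaperone that amino acid permeases need to leave the ER, fell with a value of -1.46 in ArgonLT in the authors' deposited table, where 4 members rose. ERV14, a cargo receptor of the same step, was at -1.31 there, and CSR2, an adaptor of the ubiquitin ligase Rsp5, at 2.23. Of the 19 genes in this list, 3 rose and 3 fell in ArgonLT and 5 rose in OLE1met250, led by the Rsp5 adaptors ROG3 (1.05) and ROD1 (0.84). RSP5 itself fell with a value of -0.87 with the MGA2 fragment, the only call of 19 in that comparison. With the SPT23 fragment CSR2 (1.08) rose and BUL1 (-0.83) fell, and in ArgonST 1 of 18 rose, ART5 (0.76). The share called was below that of all tested genes in each comparison, with 31.6% against 42.5% in ArgonLT and 26.3% against 31.2% in OLE1met250.

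Of the 10 genes listed for the Ehrlich pathway, which turns amino acids into fusel alcohols, 7 fell and 1 rose in OLE1met250 (80% called, against 31.2% of all tested genes, median -0.81). The aromatic aminotransferase ARO9 was at -2.77 and the mitochondrial branched-chain aminotransferase BAT1 at -1.91 in the authors' deposited table. In ArgonLT 5 of 10 rose and 1 fell (60% against 42.5%, median 0.82), with the cytosolic aminotransferase BAT2 at 2.68 and the alcohol dehydrogenase ADH5, at -2.56 in OLE1met250, at 2.89. With the SPT23 fragment 3 of 9 rose and 1 fell, with the MGA2 fragment 4 of 10 rose, and in ArgonST 2 of 9 rose, or 44.4%, 40% and 22.2% called against 12.4%, 20.8% and 7.27%.

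**Figure D5:**
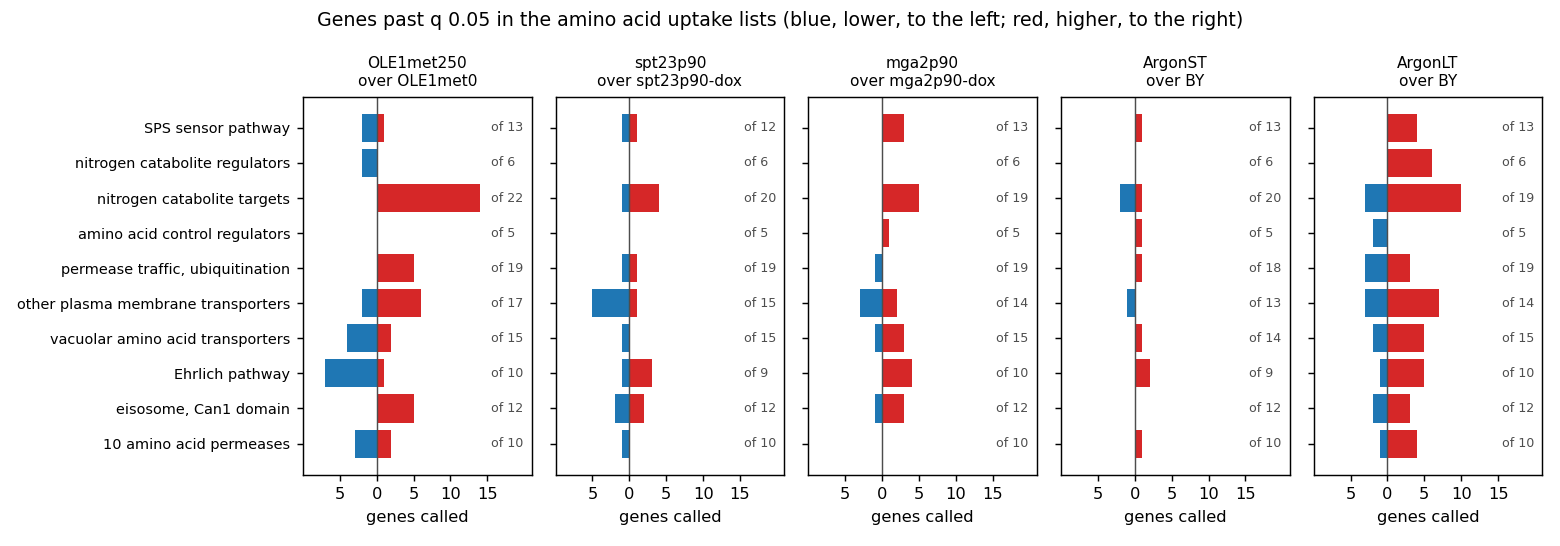
Number of genes past a q of 0.05 in each list (rows) and comparison (panels), lower to the left in blue and higher to the right in red, with the number tested at the right of each panel. The tallest count is the 14 higher nitrogen catabolite targets in OLE1met250, and none of the 10 members is called in the mga2p90 panel.

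The genes with the most similar profiles were sought over the 5 log2 fold changes among 5252 genes with a q under 1 and a finite value in every comparison, by Euclidean distance. In the authors' deposited table GAP1 lay nearest to SUC2, the invertase gene (distance 0.19), BAP2 to NAF1, a snoRNP assembly factor (0.10), TAT1 to the DNA helicase gene SRS2 (0.22) and CAN1 to the kinase gene SSK22 (0.23). LYP1 lay nearest to the phosphate transporter gene PHO90 (0.16), BAP3 to the kinase gene NPR1 (0.19), AGP1 to UBX3 (0.15), TAT2 to the mitochondrial ribosomal protein gene MRPS5 (0.17) and GNP1 to the tRNA methyltransferase gene TRM11 (0.22). DIP5 had the most distant nearest gene of the 10 members, the maltose activator gene MAL13 at 0.59. No member had another member as its nearest gene, which says little about shared profiles with 10 members among 5252 genes. The closest members to BAP2 and TAT1 were CAN1 (0.78) and AGP1 (1.35). Of the 5 comparisons behind each distance, 2 share the BY libraries.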

How the data were processed

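Poly-A selected RNA from 27 yeast libraries was sequenced as pairs, per the labels' protocols. The submitters' processing notes name Trimmomatic 0.33, TopHat2 2.0.14, Cuffdiff 2.2.1 and the build R64, without settings, annotation or use of strand. Per the file headers the deposited values are log2 differential expression, read as the group named first over the other, and q values, which are adjusted p-values. The table holds comparisons only, with 0 columns per library left aside. A value of exactly 10 or -10 was read as a ratio without a finite log2, and a q of 1 for a gene not tested.

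No new test of expression was run: calls are the authors' q under 0.05. Members and lists were chosen with earlier results of these data known. Named list genes are up to 3 per list and comparison with the largest finite called change, the sensor genes and factors named at the outset, and the others given for their role, which were chosen after their values were seen. Sequences are RefSeq R64; 5370 of 6004 matched loci agreed in end and, read as 0-based, in start. Promoter windows began as 250 bases before to 50 after the start codon, and 600 bases before it were added after the data were seen. Coding sequences were aligned with Biopython 1.88. The counting and distance steps were tested on simulated data. Alternatives were other q thresholds, a 2-fold minimum, median subtraction and another definition of tested genes.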

Additional observations from a re-analysis of the deposited data

How the results depend on the processing

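Calls of members depended on the thresholds. With at least a 2-fold change beside the q, the members called numbered 3 in OLE1met250 (GAP1, BAP2 and TAT1), 3 in ArgonLT (BAP2, TAT1 and DIP5) and 0 with the SPT23 fragment. At a q under 0.1 there were 7 in OLE1met250 (BAP3 and GNP1 added), 6 in ArgonLT (BAP3 added), 2 with the SPT23 fragment (DIP5 and BAP3) and 1 with the MGA2 fragment (AGP1). At a q under 0.01, CAN1 in OLE1met250 was lost. Subtracting the median of all tested genes, 0.10 in ArgonLT, left the sign of all 12 called values as it was and turned 3 values that were not called: GAP1 and TAT2 in ArgonST to -0.045 and -0.0090, and TAT2 in ArgonLT to -0.094. The median of the other transporters with the SPT23 fragment turned from -0.26 to 0.16 once untested genes with a finite value were counted. In the window from 250 bases before to 50 after the start codon, GATAAG was found in 1 member, CGGC in 3 and TGACTC in 1 (14.6%, 47.7% and 7.96% of promoters), against 3, 10 and 3 in 600 bases (26.7%, 75.2% and 15.3%). The shorter core GATAA was found in 5 members in the first window (61.5%) and in 6 in 600 bases (84%). No paired analysis was possible because the table holds no value per library, and leaving out each replicate was not run for the same reason. The depth is unknown, so absence of a call does not show that a permease was unchanged.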

Other observations

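Vacuolar amino acid transporters and genes of the eisosome, the membrane furrow that holds Can1, were also called. RTC2, a vacuolar transporter of basic amino acids, fell with a value of -1.79 in OLE1met250 and rose by 3.74 in ArgonLT and, with the MGA2 fragment, 1.90, per the authors' deposited table. The vacuolar list had 2 rises and 4 falls among 15 tested genes in OLE1met250, and 5 and 2 among 15 in ArgonLT, or 40% and 46.7% called against 31.2% and 42.5% of all tested genes. The counts were 1 fall among 15 with the SPT23 fragment, 3 rises and 1 fall among 15 with the MGA2 fragment, and 1 rise among 14 in ArgonST. That is 6.67%, 26.7% and 7.14% called, against 12.4%, 20.8% and 7.27% of all tested genes.

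FHN1, a homologue of the eisosome organiser NCE102, rose in 4 of 5 comparisons in the authors' deposited table, by 3.67 in OLE1met250, 1.89 with the SPT23 fragment, 3.24 with the MGA2 fragment and 5.47 in ArgonLT, and was at 1.46 without a call in ArgonST. PIL1 and LSP1, the core eisosome proteins, were called in none. No share over all genes was computed for these numbers of comparisons. The list had 5 rises among 12 in OLE1met250 (41.7% against 31.2%) and 3 rises and 2 falls in ArgonLT (41.7% against 42.5%). There were 2 rises and 2 falls with the SPT23 fragment (33.3% against 12.4%), and 3 and 1 with the MGA2 fragment (33.3% against 20.8%). In ArgonST Cuffdiff's q called 0 of 12, against 7.27% of all tested genes.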
